A study of Mus musculus with 2 samples.

Results

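The Krt17-high outer enamel organ cells are a pool of dental epithelial cells from newborn mouse molar germs, selected on their own UMI counts (unique molecular identifiers, each standing for 1 captured transcript). A cell entered when it had at least 500 detected genes, at most 20% mitochondrial UMIs, at least 3 UMIs over Epcam, Cdh1, Krt5, Krt14 and Perp, and at least 3 UMIs over Krt17, Dsc3, Nectin4 and Odam. It was left out with more than 2 UMIs of Shh, Vwde, Igfbpl1 and Vwa2, with more than 1 UMI of the oral genes Krt4, Krt13, Krt6a, Calm4 and Sprr3, with any Edar UMI, or with over 100 UMIs per 10000 of the 3 collagen genes or 100 or more of the 3 enamel matrix genes. The rule found 256 of 13431 passing control cells and 241 of 15487 passing deletion cells, 497 cells in all, and they are called members below.

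Germs of the mandibular first molar of newborn C57BL/6 mice were digested with collagenase and dispase, cleared of dead cells and captured on the BD Rhapsody microwell system. The control group was Edarfl/fl, in which loxP sites flank part of Edar and no Cre is present. The deletion group was K14cre;Edarfl/fl, in which the same floxed allele meets a Cre driven by the keratin 14 promoter, active in basal epithelium. Each group was 1 library, so no comparison has a replicate check, no p-value was computed, and intervals cover counting error alone. How many pups and germs were pooled is not stated in the sources used here.

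The enamel organ is the epithelial part of a tooth germ. Its inner layer becomes the enamel-secreting ameloblasts, while the outer enamel epithelium, the star-shaped stellate reticulum and the stratum intermedium form the layers outside it. Edar, the receptor of ectodysplasin, signals through Edaradd to NF-kB and shapes cusps and enamel knots, and its loss is one cause of hypohidrotic ectodermal dysplasia. Krt17 is a keratin of hair, gland and tooth epithelium, Dsc3 a desmosomal cadherin, Nectin4 an immunoglobulin-like adhesion molecule, and Odam a secreted protein of maturing ameloblasts and of the epithelium attached to the tooth.

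The libraries held 73375441 control and 62158879 deletion UMIs. A median control member had 3381 UMIs and 1650 detected genes, and a median deletion member 2732 UMIs and 1418 genes. Members summed to 1013198 and 806568 UMIs. The median mitochondrial share of a member was 8.91% (control) and 11.3% (deletion). The libraries shared 4 barcodes, and 0 of these were members. Both libraries mixed the sexes, in unequal parts. Among control members 45 had Xist, a transcript of female cells, without Y-linked UMIs and 91 had the reverse, while among deletion members these were 102 and 35 cells. Sex, pup and library depth therefore differ between the libraries together with genotype and cannot be told apart over the whole pools. Levels below are CPM, UMIs of a gene per 1000000 UMIs of the same cells, and ratios are log2 of (CPM + 5), deletion over control unless another pair is named.

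Edar had 0 UMIs in members of both libraries because the rule demanded it. In the cells set aside for Shh, Vwde, Igfbpl1 and Vwa2, called the Shh set, Edar had 307 control UMIs (41.4 CPM) and 111 deletion UMIs (24.7 CPM). Where the counted UMIs lie relative to the deleted exons is unknown here, so these values do not check the genotype labels. Cells with an Edar UMI that belonged to neither the Shh, the oral nor the enamel-rich set numbered 27 control and 10 deletion cells, and their Krt17 level was 944 and 796 CPM, close to that of the members.

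Members made up 11.9% of the 2158 control cells that passed the epithelial gate (95% Clopper-Pearson interval 10.5 to 13.3) and 14.5% of the 1662 deletion cells (12.8 to 16.3). The deletion library was the shallower, and the rule counts UMIs. When each gated cell was thinned to 1900 UMIs before the rule was applied, leaving out 196 and 223 shallower gated cells, the rule took 253 of 1666 control cells, or 15.2%, and 193 of 1191 deletion cells, or 16.2%. The interval of the latter ran from 14.2 to 18.4. The thinned rule did not take the same cells: 101 of the 253 and 65 of the 193 were not members before, 78 and 49 of them coming from the Shh set, so the thinned shares are of another population than the members described here.

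The genes that chose the members are given as a description. Krt17 (chromosome 11, 100256217 to 100261029, minus strand, mm10) had 925 and 757 UMIs, or 913 and 939 CPM, a ratio of 0.04 with a count ratio between 0.933 and 1.13. Nectin4 (chromosome 1, 171370099 to 171388598, plus strand) had 336 and 366 CPM, and Dsc3 663 and 789 CPM. Each of these 3 differed by less than 1.5-fold between the libraries, whereas Odam (chromosome 5, 87885029 to 87894174, plus strand) stood at 671 control and 419 deletion CPM. At least 1 Krt17 UMI was present in 90.6% and 85.9% of members, against 1.40% and 1.93% of cells outside the epithelial gate, whose median depth was higher at 4546 and 3355 UMIs. Odam was the patchiest of the 4, present in 35.9% and 29.0% of members against 0.257% and 0.195% outside the gate. All 4 markers were present together in 45 control and 25 deletion members, and 1 marker alone in 29 and 31.

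**Figure D1:**
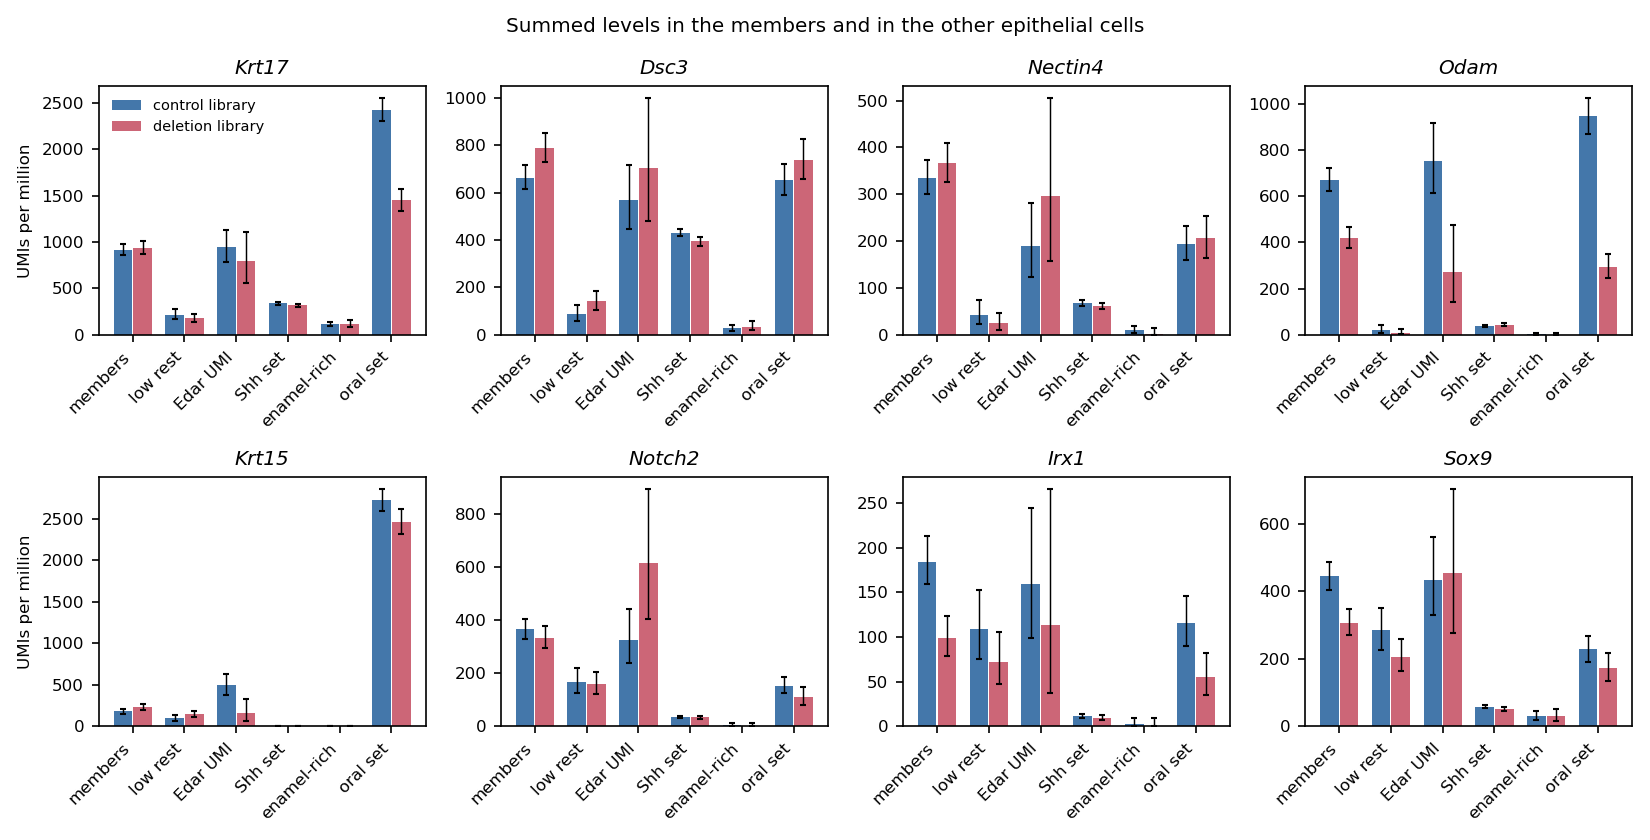
CPM (linear axis from 0) of 8 genes in members and in 5 other sets of gated epithelial cells, for the control and the deletion library. Bars are sums over cells, and error bars are 95% exact Poisson intervals, which cover counting error only. Krt17 is at 913 and 939 in members but at 2428 and 1448 in the oral set, Krt15 is far higher in the oral set, and Notch2, Irx1 and Sox9 are low in the Shh set and the enamel-rich cells.

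The marker threshold did not fall at a gap. The 27 control and 29 deletion members with exactly 3 marker UMIs had 520 and 607 CPM of Krt17, and the 32 and 43 cells just outside, with exactly 2, had 368 and 360 CPM. Genes outside the rule were closer still on the 2 sides. Maf had 629 and 744 CPM just inside and 613 and 703 CPM just outside, and Sox9 had 375 and 410 CPM against 378 and 315 CPM. Gated cells below the marker threshold were shallow, with medians of 1937.5 and 1984 UMIs, and those of the control library had a median mitochondrial share of 0.682%.

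Against the other enamel organ cells of the same library (1613 control and 1195 deletion cells, of which 1470 and 1043 were the Shh set), members had more Nectin3, Notch2, Irx1, Sox9 and Maf and less Frem2, Sp6 and Fgf9. Since the rule keeps Shh-set cells out, this contrast is a description without a test. The sums of the other cells are mainly those of the Shh set and say little of the rest of them. Of 3566 genes at 50 CPM or more that the rule did not use, 170 (4.77%) were at least 2-fold higher in members in both libraries and 139 (3.9%) at least 2-fold lower.

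Among genes of cell contact, Nectin3, a partner of other nectins in heterophilic adhesion, had 335 and 293 CPM in control and deletion members against 77.6 and 76.4 CPM in the other enamel organ cells. Pkp1, Pkp4 and Jup, plaque proteins of desmosomes and adherens junctions, made 3 of 9 tested desmosome genes past 2-fold. Lamb3, a laminin chain gene, was lower in members at 97.7 and 88.0 CPM against 230 and 185 CPM. The Fraser complex genes Fras1, Frem1 and Frem2, which anchor epithelium to its basement membrane, were all lower, Frem2 with 184 and 250 CPM against 943 and 868 CPM.

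Notch2, a Notch receptor (chromosome 3), had 367 and 335 CPM in members and 44.2 and 47.9 CPM in the other cells, log2 differences of 2.92 and 2.68. A Notch2 UMI was present in 60.5% and 51.5% of members, against 10.8% and 11.5% of the deeper other enamel organ cells and 19.6% and 18.2% of cells outside the gate. The oral set had 153 and 110 CPM of Notch2. Gated cells with exactly 2 marker UMIs had 194 and 333 CPM, beside 266 and 319 CPM in members with exactly 3. Notch1 and the Notch target Hes1 were also past 2-fold higher, and the ligand Jag2 and the glycosyltransferase gene Lfng past 2-fold lower. In the Notch list 3 of 6 tested genes were thus higher and 2 lower.

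The transcription factor genes Irx1 and Irx2, neighbours in an Iroquois cluster of chromosome 13, had 185 and 99.2 CPM and 76.0 and 55.8 CPM in members, against 17.6 and 15.3 CPM and 13.3 and 8.15 CPM. Sox9, a progenitor factor of many epithelia, had 445 and 306 CPM against 73.2 and 66.0 CPM, and Maf, a bZIP factor, 984 and 696 CPM against 164 and 167 CPM. These 3 genes were nearer the members in the oral set, with 116 and 55.1 CPM of Irx1, 228 and 172 CPM of Sox9, and 612 and 496 CPM of Maf. Of the 138 and 75 Irx1 UMIs of the other enamel organ cells, 84 and 43 lay in the Shh set. Sp6, which drives ameloblast differentiation, and Satb1 were lower in members, Sp6 with 270 and 232 CPM against 931 and 861 CPM.

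Lists of enamel organ layers, chosen with earlier results of these data known, did not single out the outer enamel epithelium. Of 4 tested stratum intermedium genes all 4 were past 2-fold higher, namely Alpl, the tissue-nonspecific alkaline phosphatase, Ibsp, Notch1 and Jph4. Alpl had 345 and 326 CPM against 62.3 and 69.0 CPM. Cells outside the epithelial gate had 309 and 281 CPM of Alpl. In the stellate reticulum list 2 of 4 were higher (Ntrk2 and Sdc1), and in the outer enamel epithelium list 1 of 2 (Slco4a1). By these lists the members held genes of several layers, and the name outer rests on the rule.

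Other genes far higher in members were the basal keratin gene Krt15 (179 and 233 CPM against 13.3 and 15.1 CPM), Pi15, Col14a1, Spink5, Mindy4, Sparcl1, Fat2, the imprinted RNA H19, Metrnl, Tenm2, Prss35, Gas6, Igfbp3, Tnc and Cltb. Ctsk and Mmp9, proteases of osteoclasts, also ranked at the top, but in each library 1 cell held most of their UMIs. That cell carried 183 of 188 control and 142 of 153 deletion Ctsk UMIs, and 1 cell 88 of 89 and 69 of 74 Mmp9 UMIs. Under a stricter cell filter the smaller of the 2 log2 differences was 0.44 for Ctsk and -0.33 for Mmp9. The lowest genes were Col22a1, Rprm, Ecel1, Gpha2, Tent5a, Susd5, Stmn2, Camk4, B3galt1 and the enamel knot ligand Fgf9, which had 2.96 and 7.44 CPM in members against 77.6 and 87.4 CPM. The retinoic acid-degrading enzyme gene Cyp26a1 had 47.4 and 68.2 CPM against 491 and 408 CPM. The Shh set, most of the other enamel organ cells, held 9 of their 104 control and 14 of their 74 deletion Krt15 UMIs. For Spink5 it held 1 of 41 and 1 of 10. Both genes thus lay mainly in the few other cells outside the Shh set, and were not particular to members. This contrast leaves out the oral set. There H19 had 4850 and 7411 CPM against 1286 and 1391 CPM in members, and Spink5 349 and 311 CPM against 71.1 and 54.6 CPM. Krt15 and Igfbp3 were also higher in the oral set than in members, and Pi15 and Col14a1 lower. Mindy4 was near the members in the control library and lower in the deletion library. Outside the epithelial gate Igfbp3 had 239 and 279 CPM.

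**Figure D2:**
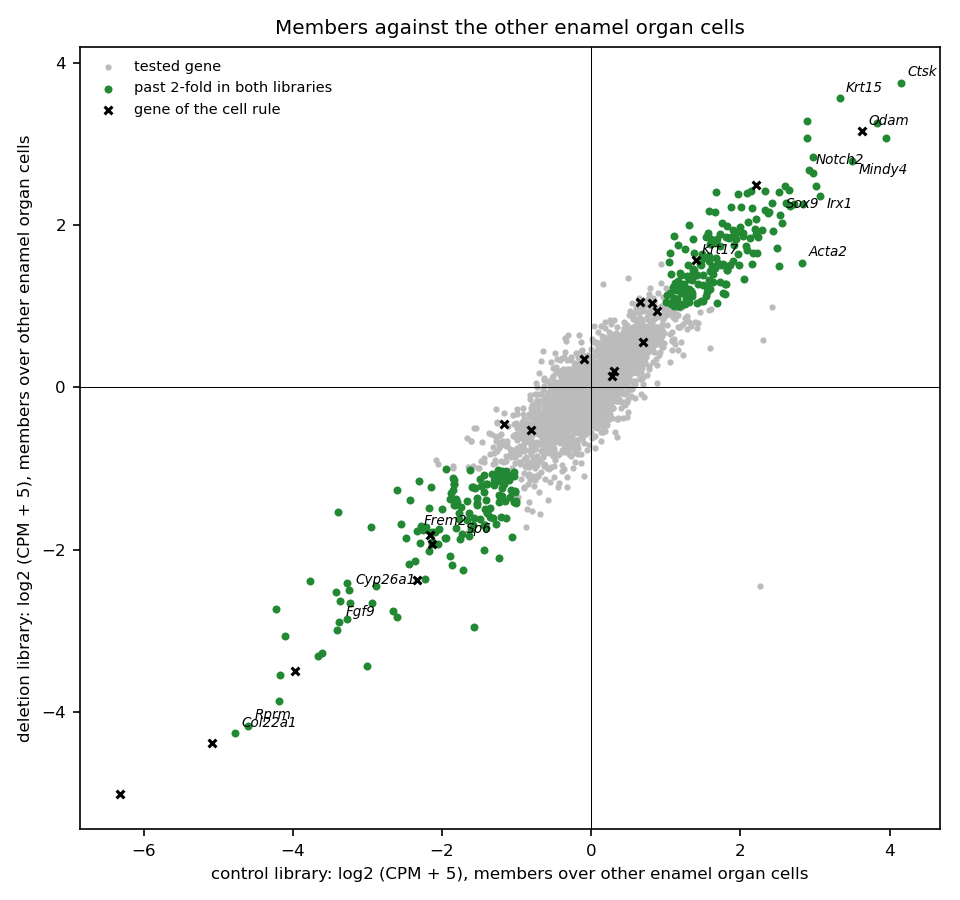
Log2 ratio of (CPM + 5), members over other enamel organ cells, in the control library (x axis) and in the deletion library (y axis). Each point is 1 tested gene, green points passed 2-fold in both libraries, and crosses are genes of the cell rule. The 170 higher and 139 lower genes lie along the diagonal, with Notch2 at 2.92 and 2.68, and Acta2 lies off it, at 2.83 (control) and 1.54 (deletion).

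Clustered together without the genes of the rule, the 497 members fell into 7 sub-clusters, which are given by number and leading genes. Every sub-cluster held cells of both libraries. The leading genes come from the same cells that were clustered and are a description. Folds are against the other members.

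Sub-cluster 3 was the largest, with 85 control and 60 deletion cells, and was led by Gm17660, Mindy4, the hyaluronan synthase gene Has3, Odam, Cbr2, the neprilysin gene Mme and the bicarbonate transporter gene Slc4a4. Mindy4 had 1448 CPM there against 127 CPM in the other members. The summed stellate reticulum list stood at 3024 CPM against 1525 CPM. Its 8 genes included 3 detected in at least 25% of cells, but none was among the 10 leading genes.

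Sub-cluster 0 (52 and 58 cells) was led by Igfbp3, an insulin-like growth factor binding protein, at 623 CPM against 52.5 CPM, followed by Spink5, Slc35g1, Atf3, BC037156, Fat2, Sema3a and Pthlh, the parathyroid hormone-like ligand. It also had the most immediate early transcripts among the large sub-clusters, a summed 13483 CPM against 4341 CPM. Sub-cluster 2 (58 and 68 cells) was led, after the single-cell signals of Ctsk and Mmp9 and after Calb1, by the mitotic genes Ube2c, Cdc20 and Nusap1. Its summed G2 and M phase list was 4062 CPM against 525 CPM, and its immediate early list 2277 CPM against 7802 CPM.

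Sub-cluster 1 (17 and 21 cells) had the highest Krt15 among the sub-clusters, at 2036 CPM against 62.7 CPM, together with Capn6, Itih5, Smoc2, Thbs2 and Col8a1. Krt15 had 125 of 181 control and 138 of 188 deletion UMIs in these cells, and 54 and 41 in sub-cluster 0. Sub-cluster 6 (13 and 13 cells) was marked by Sfrp5, a secreted Wnt antagonist, at 398 CPM against 2.4 CPM, and by the retinaldehyde dehydrogenase gene Aldh1a3, Nppc, Moxd1, Matn4 and Nnat. Its summed S phase list was 2957 CPM against 716 CPM, with 15 of 22 genes detected in at least 25% of cells.

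The remaining sub-clusters carried signs of other cells or of low quality. Sub-cluster 5 (12 and 15 cells) was led by the macrophage and chemokine genes Lyz2, Cxcl2, C1qc and Pf4, and 13 of its 14 mesenchyme markers were detected in at least 25% of cells. Sub-cluster 4 (19 and 6 cells) was shallow, with a median of 1469 UMIs and a median mitochondrial share of 0.196%.

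**Figure D3:**
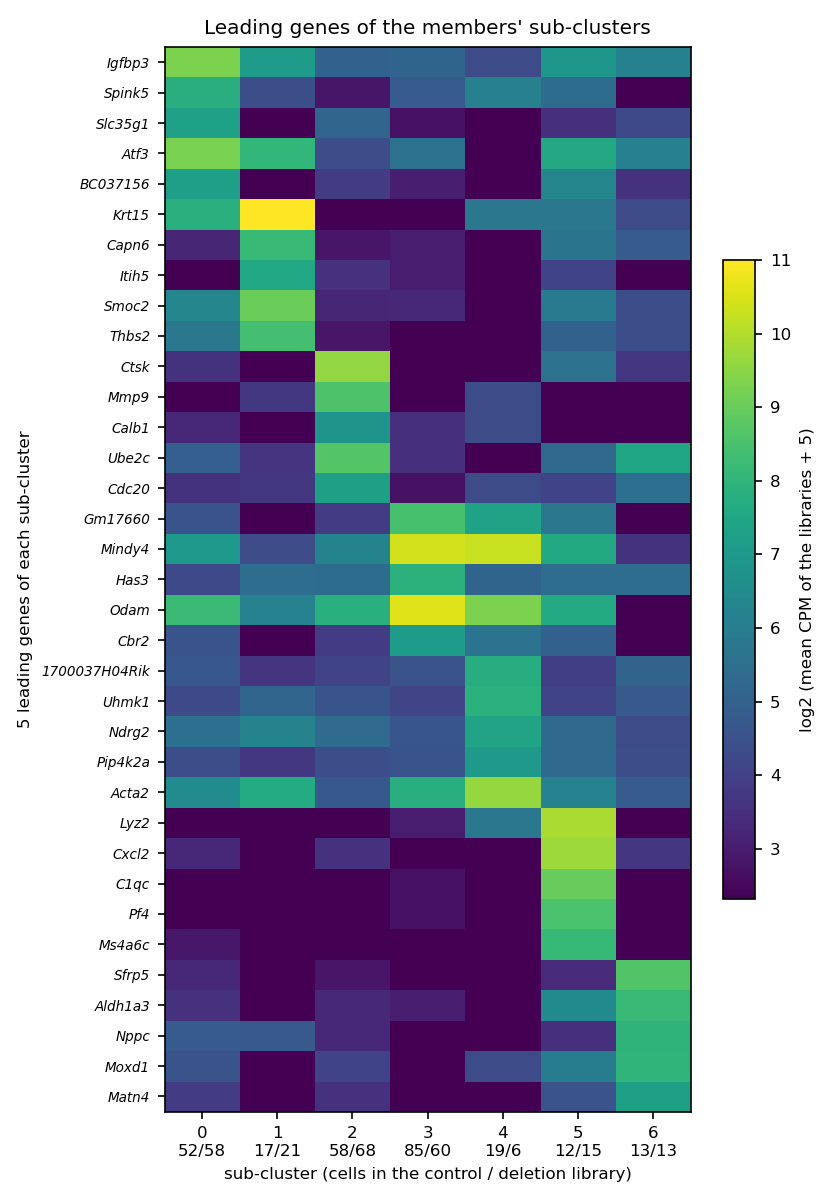
Colour gives log2 of (mean CPM of the control and deletion libraries + 5) for the 5 leading genes of each of the 7 sub-clusters, with cell numbers in the control and deletion library under each. Krt15 marks sub-cluster 1, Mindy4 and Odam mark sub-cluster 3 and also appear in sub-cluster 4, macrophage genes mark sub-cluster 5, and Sfrp5 marks sub-cluster 6.

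Between the libraries few genes of the members differed. With at least 50 CPM in 1 library required, 3699 genes were compared. At 2-fold, with a 95% conditional binomial interval of the count ratio that left out 1, 11 (0.297%) were higher in the deletion library and 28 (0.757%) lower. At 1.5-fold, 90 (2.43%) were higher and 184 (4.97%) lower. Over the 10934 genes at 5 CPM or more the median ratio was -0.05. With every cell given the same weight the 2-fold counts were 17 and 22. These counts come from 1 library a side and describe these libraries, not the genotypes.

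Mt1, a metallothionein that binds zinc and copper (chromosome 8, 94179082 to 94180327, plus strand), had the highest ratio of the 3699 genes compared. It had 42 UMIs (41.5 CPM) in control members and 136 UMIs (169 CPM) in deletion members, a ratio of 1.90 and a count ratio between 2.86 and 5.90. Its neighbour Mt2, of the same family, had 88 and 50 UMIs, or 86.9 and 62.0 CPM, a ratio of -0.46 with a count ratio between 0.494 and 1.02. For Mt2, 1 control cell held 30 of the 88 UMIs and 1 deletion cell 9 of the 50. The Mt2 ratio was 1.16 among Xist-only members (2 and 11 UMIs) and -0.34 among Y-linked-only members (67 and 14 UMIs). In the metallothionein and zinc list, 1 of 7 tested genes was past 1.5-fold higher and 0 lower, and the zinc importer gene Slc39a8 stood at 627 and 646 CPM.

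Mt1 was higher in the deletion library in each of the 6 sub-clusters in which it had any UMI. In sub-cluster 3 it had 3 and 9 UMIs, or 9.1 and 58.6 CPM. In sub-cluster 2 it had 2 and 16 UMIs, or 9.8 and 71.7 CPM. Levels in sub-cluster 6 were 98.5 and 418 CPM. The sub-clusters are parts of the same 2 libraries, not separate samples. In the Shh set Mt1 had 19.6 and 140 CPM and in the oral set 228 and 376 CPM. Cells outside the epithelial gate had 82.8 and 77.9 CPM. The difference between gated and other cells was not tested.

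The size of the Mt1 difference in members varied with the sex-linked transcripts. In members with Xist only it was 5.38 CPM (1 UMI, control) and 184 CPM (67 UMIs, deletion), and in members with Y-linked UMIs only 53.0 CPM (22 UMIs) and 90.7 CPM (10 UMIs), a ratio of 0.72. The Xist-only control members came mainly from sub-cluster 3, 24 of 45 cells, while 35 of 102 Xist-only deletion members came from sub-cluster 2. Their part in the difference was not tested.

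The RefSeq promoter windows of both metallothionein genes (GRCm38.p6, 250 bases before to 50 after the annotated start) are shown because Mt1 passed 2-fold between the libraries and its neighbour Mt2 did not. Capitals mark metal response elements, searched as TGCACNC or TGCGCNC on both strands.
Mt1: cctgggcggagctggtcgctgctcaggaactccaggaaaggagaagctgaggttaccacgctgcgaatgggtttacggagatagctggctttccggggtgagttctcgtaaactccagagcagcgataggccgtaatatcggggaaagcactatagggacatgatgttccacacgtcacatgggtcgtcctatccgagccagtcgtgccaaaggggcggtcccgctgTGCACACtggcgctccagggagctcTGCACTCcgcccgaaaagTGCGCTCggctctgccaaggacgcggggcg
Mt2: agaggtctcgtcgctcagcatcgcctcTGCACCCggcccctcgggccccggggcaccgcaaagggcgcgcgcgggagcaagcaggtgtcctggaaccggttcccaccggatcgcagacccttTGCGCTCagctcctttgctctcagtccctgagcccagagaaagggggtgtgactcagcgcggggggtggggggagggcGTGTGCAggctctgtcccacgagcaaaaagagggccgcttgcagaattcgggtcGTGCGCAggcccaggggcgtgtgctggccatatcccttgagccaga
The Mt1 window (chr8:94178839-94179138, plus strand) held 3 such elements, all on the plus strand, and the Mt2 window (chr8:94172368-94172667, plus strand) held 4, with 2 on each strand. None overlapped another. Of 32851 promoter windows of the same length, 25.7% held at least 1 element, 1.97% at least 3 and 0.517% at least 4. Both windows thus carry more elements than most. These counts cover the printed bases alone and depend on the annotated start that placed each window. Bases further downstream, or around any other start of either gene, were not searched. The values of 3 and 4 are therefore not totals for the Mt1 and Mt2 promoters. A match of letters is a description, not a measured binding site.

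Immediate early genes, the transcription factor and phosphatase genes switched on within minutes of stimulation or handling, were higher in deletion members. Of 24 listed genes, 23 had at least 5 CPM, and 19 of these had a ratio above 0. Over all genes at that level, 4920 of 10934 had a ratio above 0. The list's median was 0.59, beside -0.05 over all genes. Of 17 tested, 10 were past 1.5-fold higher and 0 lower, beside 2.43% and 4.97% of all genes compared. Fos had 1124 and 2136 CPM, Jun 359 and 754 CPM, Fosb 344 and 635 CPM, and Egr1 623 and 971 CPM. In the other enamel organ cells Fos had 438 and 849 CPM and Jun 205 and 321 CPM. The oral set had 963 and 1721 CPM of Fos and 406 and 481 CPM of Jun. Cells outside the epithelial gate had 2030 and 2515 CPM of Fos and 683 and 1017 CPM of Jun. All these sets of cells were thus higher in the same library, and the difference was not confined to epithelium.

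The immediate early difference also varied with sex-linked transcripts. The list's median ratio was 1.66 among Xist-only members and 0.30 among Y-linked-only members. Fos had 419 and 2092 CPM in the former and 1630 and 2450 CPM in the latter, so the low pool was the Xist-only control cells. Within sub-cluster 2 Fos had 92.7 and 816 CPM and within sub-cluster 0 3167 and 4081 CPM. Heat shock genes had a median of 0.14, and Hspa1b and Dnajb1 were the 2 of 12 tested past 1.5-fold. The handling time of each library is unknown here, and its part in these values was not tested.

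**Figure D4:**
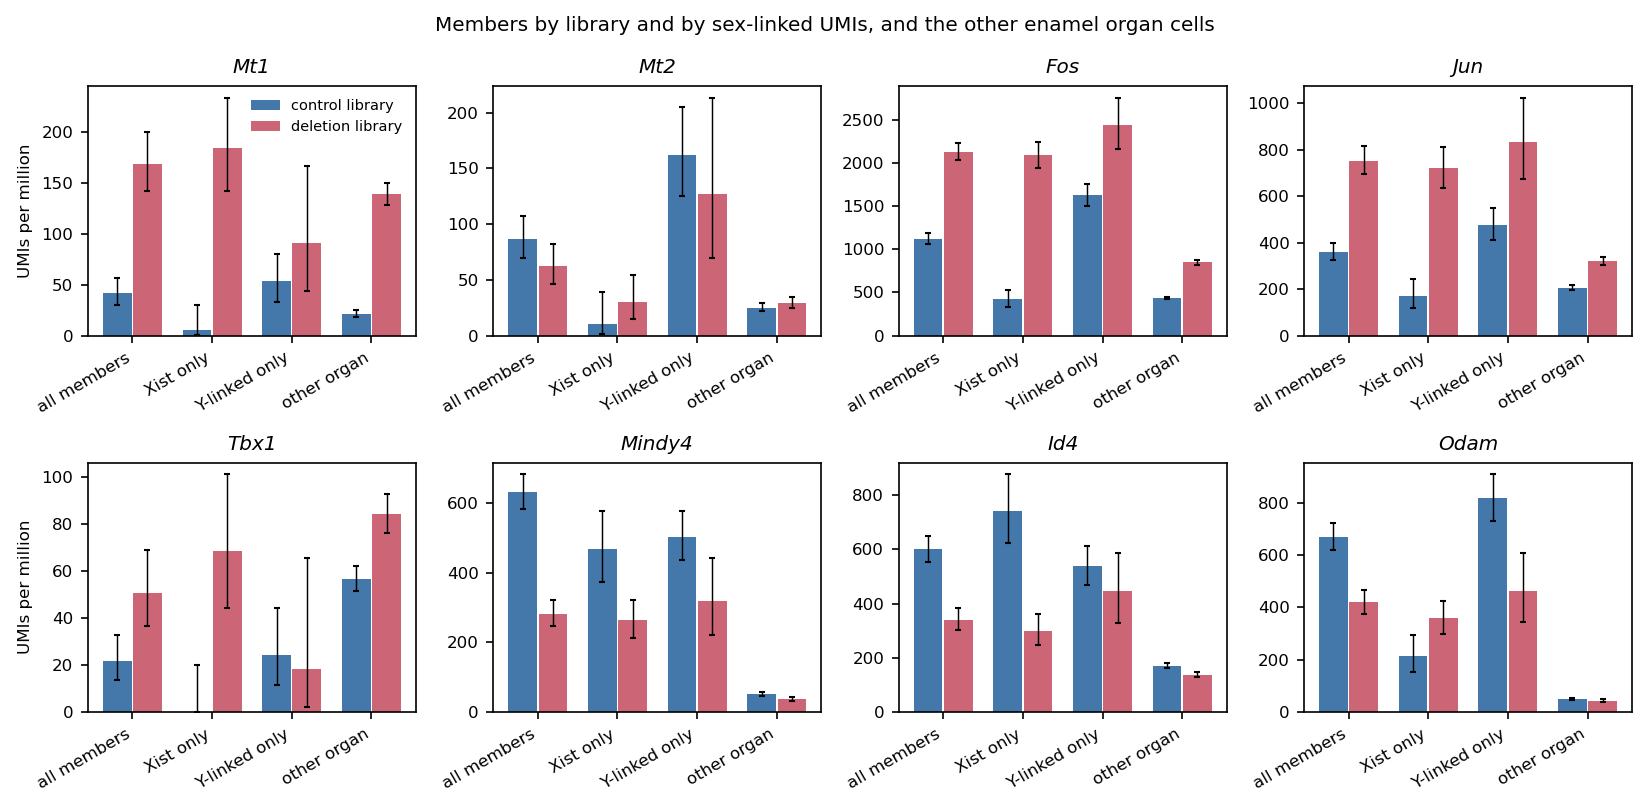
CPM (linear axis from 0) of 8 genes in all members, in members with Xist only, in members with Y-linked UMIs only, and in the other enamel organ cells, for the control and the deletion library. Bars are sums over cells, and error bars are 95% exact Poisson intervals, which cover counting error only. Fos is 419 in Xist-only control members and between 1630 and 2450 in the other 3 member pools split by sex, and Odam is lower in the deletion library among Y-linked-only members and higher among Xist-only members.

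Apart from Mt1 and Jun, the genes past 2-fold higher were Ccn1, a matricellular protein, with 52.3 and 134 CPM, Grb10, an imprinted adaptor of insulin receptor signalling, with 19.7 and 50.8 CPM, and Col3a1, a collagen gene that the rule itself limits. Others were Igfbp7, Tenm3, Clstn2, Tbx1, Rpgrip1 and Nhs, with ratios between 1.01 and 1.14. Tbx1, a transcription factor needed for the incisor's stem cell niche, had 22 and 41 UMIs, or 21.7 and 50.8 CPM, and its ratio turned to -0.33 among Y-linked-only members. Of the 11 higher genes, 10 had the same direction in the other enamel organ cells, 2 of them past 2-fold there, and 8 had it among members of both sexes.

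Many of the lower genes were immune genes, led by the chemokine gene Cxcl2 with 163 and 5 UMIs (161 and 6.20 CPM), the lysozyme gene Lyz2 with 172 and 11 UMIs, and Nlrp3 with 53 and 1. They rested on few cells: 5 control and 3 deletion members with at least 5 UMIs of macrophage and neutrophil markers held 422 of 454 and 76 of 85 such UMIs. Of the 8 macrophage markers 0 were at 0 in either library, and their sum was 422 and 105 CPM. Without those 8 cells 15 genes remained past 2-fold lower and 12 higher, and Cxcl2 had a ratio of 0.68. Among the 28 lower genes, 14 had 1 cell with 30% or more of a library's UMIs.

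Some lower genes outside the immune group also rested on few cells, such as BC037156, of which 1 cell held 32.0% of the control members' UMIs. For Mindy4 the top control cell held 7.81%. Mindy4, which encodes a deubiquitinase (chromosome 6, 55203383 to 55320222, plus strand), had 640 and 228 UMIs, or 632 and 283 CPM, a ratio of -1.15 with a count ratio between 0.38 and 0.52. Within sub-cluster 3, where most of it lay, it had 1632 and 1054 CPM, and with equal sub-cluster weights in both libraries its ratio was -0.30. In the oral set it had 625 and 101 CPM. Its ratio was -0.82 among Xist-only and -0.66 among Y-linked-only members, so the direction was shared while the size was smaller than in the whole pool.

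Phlda3, a p53 target gene that restrains Akt, had 86.9 and 33.5 CPM, and its ratio lay between -1.98 and -1.07 over 16 alternatives. Dlst, a subunit gene of the 2-oxoglutarate dehydrogenase complex, had 174 and 80.6 CPM, and the homeobox gene Barx2 50.3 and 19.8 CPM. The simple-epithelium keratin gene Krt7 had 51.3 and 17.4 CPM and smooth muscle actin, Acta2, 180 and 67.0 CPM. Acta2 was also lower in the oral set, at 523 and 122 CPM. In the other enamel organ cells its ratio was -0.07. Among Xist-only members Acta2 had 53.8 and 49.3 CPM, and among Y-linked-only members 152 and 54.4 CPM. It was also a leading gene of the shallow sub-cluster 4 (19 control and 6 deletion cells), at 688 CPM against 116 CPM in the other members. Ddx3y, a Y-linked gene, was lower in the library with fewer Y-linked-only members. The others past 2-fold lower were BC037156, Ctss, Fcer1g, Thbs1, Ctsc, Laptm5, Pf4, Selenop, C1qc, Tyrobp, Apoe, Mbd1, Gak, H2-D1, Zfp52, Nfe2l2, Rab31 and Mrpl57. Of all 28, 22 had the same direction in the other enamel organ cells, 2 of them past 2-fold there, and 12 had it among members of both sexes.

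Some genes that set the members apart from other enamel organ cells also differed between the libraries past 1.5-fold. Id4, an inhibitor of basic helix-loop-helix factors in the BMP pathway, had 609 and 275 UMIs, or 601 and 341 CPM, a ratio of -0.81 with a count ratio between 0.49 and 0.655. The Id4 ratio was -1.30 among Xist-only and -0.27 among Y-linked-only members, the latter within 1.5-fold. Irx1 had a ratio of -0.86, and Slco4a1, an organic anion transporter gene of the outer enamel epithelium list, -0.82. Among Xist-only and Y-linked-only members Irx1 was at -1.11 and -0.58, and Slco4a1 at -1.59 and -0.39. Id1 and Smad7, also BMP and TGF-beta targets, moved the other way, at 0.80 and 0.88, so of 13 tested genes of that list 2 were past 1.5-fold higher and 1 lower. Notch2 (-0.13), Krt5 (-0.25), Alpl (-0.08) and Krt15 (0.37) stayed within 1.5-fold.

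Odam was lower over the whole pool, with 680 and 338 UMIs and a ratio of -0.67, but not within the cells that held most of it. In sub-cluster 3 it had 1544 and 1484 CPM. It was lower within sub-cluster 0, at 357 and 236 CPM (75 and 52 UMIs), and within sub-cluster 2, at 332 and 112 CPM (68 and 25 UMIs). With equal sub-cluster weights the ratio was 0.04, among Xist-only members 0.73 and among Y-linked-only members -0.81. Sub-cluster 3 held 85 of 256 control and 60 of 241 deletion members.

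Few genes of the signalling lists reached the level tested, so their counts of 0 are to be read beside the background shares of 2.43% higher and 4.97% lower. Of the EDAR pathway list 19 of 22 genes had at least 5 CPM, with a median ratio of -0.02, and 0 of 5 tested passed 1.5-fold. For targets of EDAR and NF-kB the median ratio was -0.26 over 15 genes, and Cxcl2 was its 1 call of 4 tested, resting on the few cells named above. The Hedgehog response genes Ptch1 and Gli1 were at 0.07 and -0.17. No gene of 5 tested Notch, 5 FGF or 6 Wnt genes passed 1.5-fold. Dental transcription factor genes gave 1 higher (Tbx1) and 3 lower (Barx2, Irx1 and Dlx3) of 19 tested.

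Among adhesion genes, 0 of 9 desmosome genes, 0 of 11 nectin and adherens junction genes and 0 of 4 tight and gap junction genes passed 1.5-fold, beside the same background shares, and of 20 basement membrane and hemidesmosome genes Nid1 was higher and Lamc1 lower. Glycolysis and hypoxia genes lay below 0 in 14 of 18 cases, beside 6014 of all 10934 genes at 5 CPM or more. Their median was -0.32, beside -0.05 over all genes. Aldoa (484 and 305 CPM) and Tpi1 (247 and 162 CPM) were past 1.5-fold lower, of 11 tested. The 13 respiratory chain genes of mitochondrial DNA all lay above 0, beside 4920 of all 10934 genes. Their median was 0.22, and none of 12 tested passed 1.5-fold. The mitochondrial share per cell was higher in the same library, as given above, and its part in these medians was not tested.

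**Figure D5:**
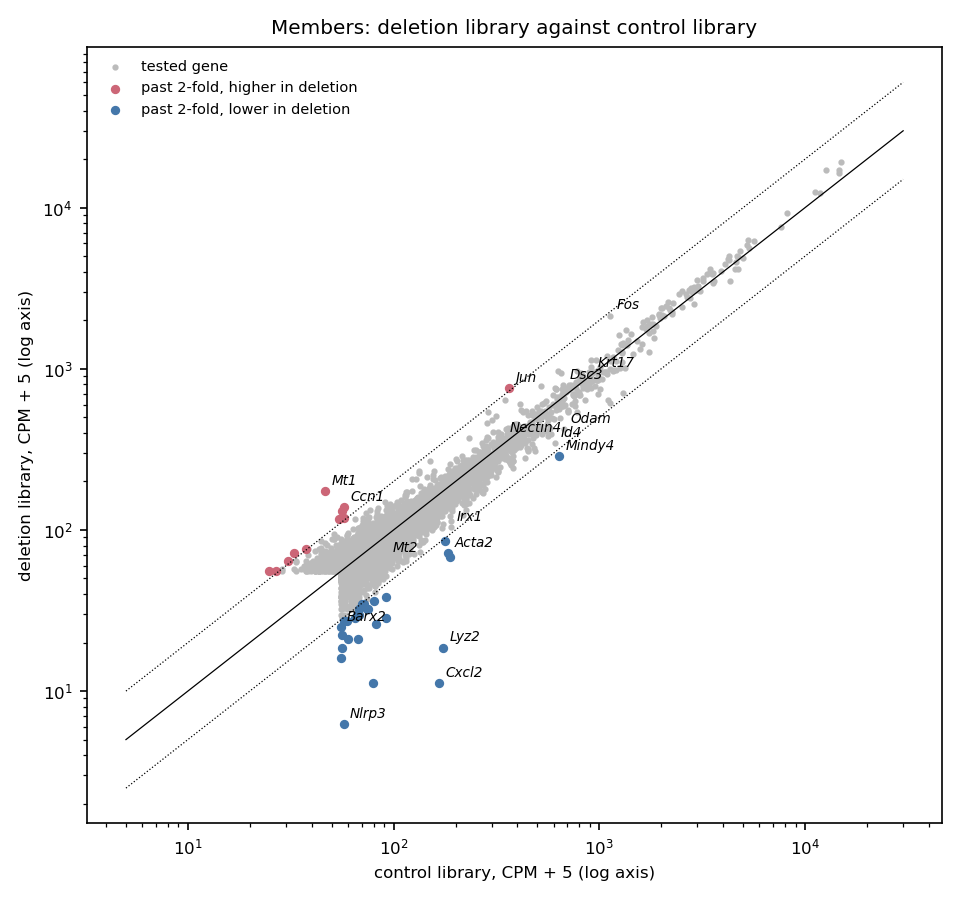
CPM + 5 of each tested gene in control members (x axis, log scale) and deletion members (y axis, log scale), with the line of equality and dotted lines at 2-fold. The 11 genes past 2-fold higher in the deletion library include Mt1 (41.5 and 169 CPM), and the 28 past 2-fold lower include Cxcl2, Lyz2 and Mindy4.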

How the data were processed

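The authors deposited 1 matrix of whole-number UMI counts per library, without normalization. They were made with STARsolo on mm10, per the submitters' processing notes, with other upstream settings not stated in the sources used here. Gene positions came from GENCODE M21 for 31107 of 31253 features. The members and lists were chosen with earlier results of these data known.

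UMIs were summed per library and set of cells and compared as CPM + 5 (Python 3.11.15), without a test across libraries. The calling was tested on simulated data. The simulated counts were Poisson draws per gene without uneven loading of single cells, so they cannot check calls that rest on few cells. Members were clustered with scanpy 1.11.5 on 1500 variable genes, 20 principal components and 15 neighbours (Leiden, resolution 0.5), without mitochondrial, ribosomal, haemoglobin, sex-linked and rule genes. Doublets were kept: Scrublet called 178 (1.33%) control and 240 (1.55%) deletion cells, 4 and 7 of them members.

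Named genes were those of the rule, the 15 largest in each direction between libraries, list genes past 1.5-fold with the 2 most abundant, the 20 highest and 10 lowest against other enamel organ cells, and the 6 leading genes of a sub-cluster. Genes named besides these were chosen after their values were seen. Some genes that this rule names are not reported here. Alternatives changed the pseudocount, minimum level, scaling, cell weights, depth, filters and marker minimum. Alternatives without leukocyte-marked members, sub-clusters or top cells, within a sex, or with equal sub-cluster weights were chosen after seeing the data.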

Additional observations from a re-analysis of the deposited data

Results flagged for a closer look

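Cxcl2, a neutrophil-attracting chemokine gene, differed between libraries in opposite directions in 2 sets of cells. Its log2 ratio, deletion over control, was -3.89 in the members and 0.82 in the other enamel organ cells. In the Shh set, most of those other cells, it was 0.20. The summed neutrophil markers of the other enamel organ cells were 4.84 CPM (control) and 275 CPM (deletion), and their part in the ratio of 0.82 was not tested. The difference between these sets was not tested. The members' value rested on few cells, since 1 control member held 42.3% of the gene's UMIs there, and without the leukocyte-marked members the ratio was 0.68.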

How the results depend on the processing

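The number of genes past 2-fold between the libraries, 11 higher and 28 lower, changed with the setting. Higher counts were 17 with a pseudocount of 1 CPM, 17 with every cell weighing the same, 33 with equal sub-cluster weights, 47 with cells thinned to 1900 UMIs, 68 with a minimum of 20 CPM, 73 with the stricter cell filter, 177 with no minimum, 174 among Xist-only and 148 among Y-linked-only members. Lower counts were 62 (equal weights), 70 (thinned), 89 (20 CPM), 95 (stricter filter), 179 (no minimum), 201 (Xist only) and 133 (Y-linked only), and fell to 18 with at least 2 marker UMIs and 15 without leukocyte-marked members. The cause of these changes was not tested. Against the other enamel organ cells, 170 higher and 139 lower became 278 and 214 at 20 CPM and 351 and 275 with no minimum. For the share of members, control and deletion values were 8.15% and 9.08% with the stricter filter, 9.18% and 10.6% with at least 5 marker UMIs, 13.3% and 17.1% with at least 2, and 15.2% in the thinned control.

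Single genes reversed in 5 settings besides the stricter filter, under which Mmp9 was at -0.33 against the other cells. Between libraries, Xist-only members gave 1.07 for BC037156, 3.29 for C1qc, -0.17 for Clstn2, 0.20 for Ctsc, 0.25 for Ctss, 1.40 for Cxcl2, 1.38 for Fcer1g, 0.14 for H2-D1, 1.05 for Laptm5, 2.10 for Lyz2, 0.73 for Odam, 2.92 for Pf4, 0.86 for Selenop and 2.70 for Thbs1. Y-linked-only members gave -0.30 for Col3a1, -0.51 for Dnajb1, -0.22 for Id1, -0.049 for Ier2, -0.66 for Nid1, -0.34 for Nr4a1 and -0.33 for Tbx1. Without leukocyte-marked members Ctss was 0.089, Cxcl2 0.68, Fcer1g 0.12, Nlrp3 0.053 and Selenop 0.39, and without sub-clusters 4 and 5 Ctss was 0.098, Cxcl2 0.54, Nlrp3 0.059 and Selenop 0.17. Equal sub-cluster weights gave 0.043 for Odam. Mt1 lay between 0.72 and 4.18 and held its call in 15 of 16 settings, and Fos lay between 0.59 and 2.30.

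No paired analysis was possible because each group is 1 library, and no library was left out.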
